A study of Mus musculus with 20 samples.

Results

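The 50 genes described here encode proteins of the G2/M transition and of mitosis, and were followed in bulk RNA-seq of mouse bone marrow neutrophils. They were listed by gene symbol, with earlier results of these data known, so their counts and shares below are a description. All 50 were found among the 24421 genes listed and passed the filter on low counts, as 14030 genes did in all. The data comprised 20 libraries, 1 per mouse, in 4 groups of 5: untreated WT, untreated Bmal1Mye-/-, IMQ-treated WT and IMQ-treated Bmal1Mye-/-. WT mice were purchased C57BL/6J animals, whereas Bmal1Mye-/- mice were bred by the study from a line with floxed Bmal1 (listed as Arntl in the files) and a line with Cre recombinase at Lyz2, a gene of the myeloid lineage. Cre from this locus also acts in monocytes and macrophages, and the controls carried neither the floxed alleles nor Cre. All mice were female. IMQ, imiquimod, an agonist of Toll-like receptors 7 and 8, was given as a 5% cream on the ears of mice 8 to 10 weeks old, 3 times per week for 6 weeks; the age of the untreated mice is not given in the sources used here. Neutrophils were enriched from marrow of femurs and tibias by magnetic negative selection, so the cells that were kept had not been bound by antibody.

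Dividing cells make this set of transcripts in a narrow window. Its core is CDK1 with the A and B cyclins, which drives entry into mitosis; further members build the spindle, attach chromosomes to it, hold back anaphase until attachment is complete, compact the chromosomes and cut the cell into daughters. In marrow, granulocyte precursors up to the myelocyte stage divide, and neutrophils stop dividing as they mature through the band and segmented forms, so these messages mark the proliferating end of the lineage. Many of the genes are repressed outside the cell cycle by the DREAM complex and induced later by B-MYB and FOXM1, and their promoters commonly hold a cell cycle genes homology region (CHR) and CCAAT boxes. BMAL1 with CLOCK binds E-boxes, which is why that motif was also looked for.

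The promoter sequences are from RefSeq on GRCm38.p6, and cover 250 bases before and 50 bases after each start site. Of the 50 genes, 42 had an entry, with 46 promoters. Those without one were Ccna2, Cdc25c, Aurkb, Kif20a, Tpx2, Dlgap5, Smc4 and Cdca2. The CHR was searched as TTTGAA, the CCAAT box as CCAAT and the E-box as CACGTG, each on both strands. The CHR letters stood in 71.7% of the 46 promoters, against 17.9% of all 32851 promoters of the same length. CCAAT stood in 80.4%, against 37.4%. Both occurred in 27 of the 42 genes (64.3%), against 7.97% of all 27025 genes with an entry, and neither occurred in Birc5, Mad2l1, Nuf2, Nusap1 and Tacc3. The E-box letters were found in 2 of the 46 promoters (4.35%), those of Anln and Ttk, against 7.15% of all promoters.

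**Figure D1:**
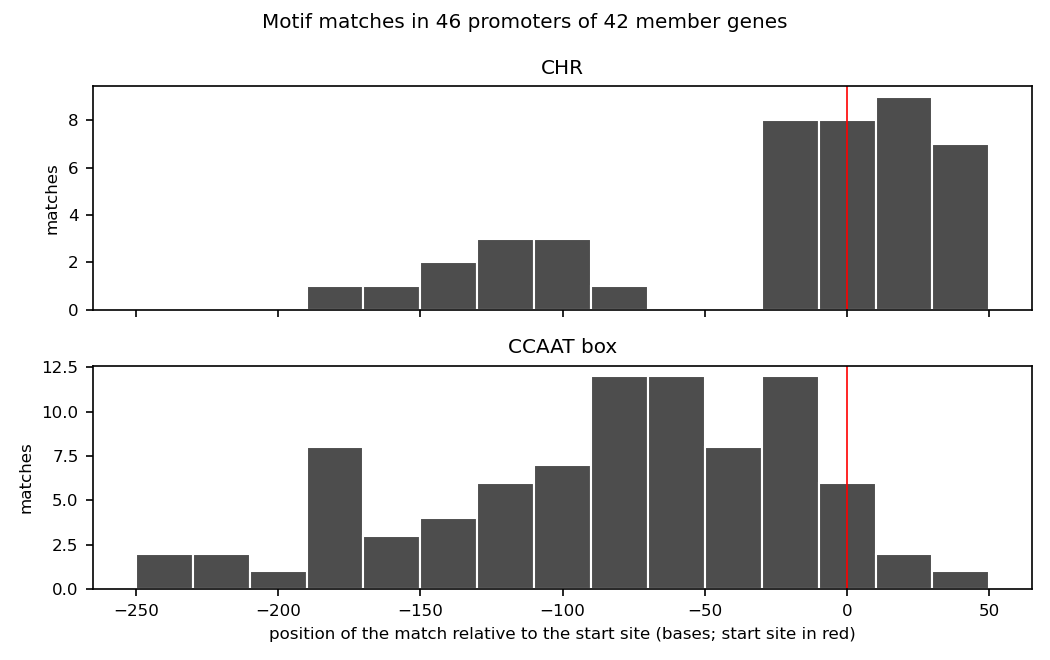
Position of each match to the CHR (TTTGAA, top) and the CCAAT box (CCAAT, bottom), on either strand, in the 46 promoters of 42 member genes; the x axis gives bases from the start site (red line) and the y axis the number of matches per 20 bases. The 43 CHR matches have their median at position 3 and 32 of them lie within 50 bases of the start site, whereas the 86 CCAAT matches have their median at -72.

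The 6 windows below run from 150 bases before to 30 bases after the start site, 5′ to 3′ on the strand of the gene, with the matches in capitals; a match on the opposite strand reads TTCAAA or ATTGG. Cdk1, Ccnb2 and Top2a show the usual pairing of both motifs, Ccnb1 has CCAAT boxes but no TTTGAA in its 300 bases, Anln carries the E-box letters, and Hjurp is shown as the member whose counts did not follow the others. All 6 genes lie on the minus strand. Their windows are chr10:69352883-69353062 for Cdk1, chr9:70421525-70421704 for Ccnb2, chr11:99024160-99024339 for Top2a, chr13:100786457-100786636 for Ccnb1, chr9:22389177-22389356 for Anln and chr1:88277550-88277729 for Hjurp.
Cdk1: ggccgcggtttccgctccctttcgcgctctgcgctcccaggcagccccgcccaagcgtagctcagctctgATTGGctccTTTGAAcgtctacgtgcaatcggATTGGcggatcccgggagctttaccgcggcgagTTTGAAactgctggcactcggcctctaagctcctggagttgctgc
Ccnb2: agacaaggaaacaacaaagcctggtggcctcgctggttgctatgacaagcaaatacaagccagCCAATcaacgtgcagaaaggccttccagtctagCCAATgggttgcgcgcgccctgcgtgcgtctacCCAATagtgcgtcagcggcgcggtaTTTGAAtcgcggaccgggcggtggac
Top2a: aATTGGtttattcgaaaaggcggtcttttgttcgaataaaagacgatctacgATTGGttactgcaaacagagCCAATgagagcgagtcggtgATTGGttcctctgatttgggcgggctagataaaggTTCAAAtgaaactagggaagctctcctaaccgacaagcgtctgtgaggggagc
Ccnb1: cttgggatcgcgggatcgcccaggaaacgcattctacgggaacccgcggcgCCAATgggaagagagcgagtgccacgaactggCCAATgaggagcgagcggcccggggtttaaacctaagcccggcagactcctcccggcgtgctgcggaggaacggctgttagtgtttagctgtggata
Anln: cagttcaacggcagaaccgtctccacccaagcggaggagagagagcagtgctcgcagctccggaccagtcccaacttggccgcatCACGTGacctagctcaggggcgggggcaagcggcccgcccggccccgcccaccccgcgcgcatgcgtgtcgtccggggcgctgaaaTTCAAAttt
Hjurp: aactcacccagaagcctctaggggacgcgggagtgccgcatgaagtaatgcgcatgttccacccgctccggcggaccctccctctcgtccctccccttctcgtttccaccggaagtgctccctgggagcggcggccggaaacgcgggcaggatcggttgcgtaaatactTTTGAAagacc
In Cdk1 the CHR matches begin at positions -71 and -15 from the start site. Ccnb2 has its CHR at 5 and CCAAT boxes at -87, -54 and -21. The CACGTG of Anln begins at -65 and its CHR, on the opposite strand, at 22.

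Counted reads per library ranged from 30782166 to 92613500, which were 37.41% to 41.95% of all reads in a file, and no member fell below 52 reads in any library, so counting error was small beside the differences between mice. Values are given as CPM, the usual measure of a gene's share of all counted reads in its library, scaled by TMM factors of 0.854 to 1.38. The highest factor belonged to IMQ-treated Bmal1Mye-/- library 1, and the next to IMQ-treated WT library 3. Arntl was low everywhere, at 0.895 to 1.71 CPM in untreated WT, 0.468 to 1.1 in untreated Bmal1Mye-/-, 0.562 to 1.87 in IMQ-treated WT and 0.337 to 1.52 in IMQ-treated Bmal1Mye-/-. These ranges overlap, the value of 1.52 comes from the library labelled IMQ-treated Bmal1Mye-/- 1, and a count over the whole gene includes exons outside the deleted part, so it does not check the genotype of a single library. Neutrophil markers were abundant in every library, but not evenly so. The 11 tested, S100a8 and S100a9 among them, summed to 77103 to 171530 CPM, the lowest in IMQ-treated Bmal1Mye-/- library 1. That library also had the highest sum of monocyte markers, 2378 CPM. With IMQ in Bmal1Mye-/-, 3 of the 11 changes were positive and the median was -0.23 on the log2 scale. Of the 11, 4 had an unadjusted p under 0.05 (edgeR) and 1 was called lower, beside 9.04% of all genes called lower there. These 4, with Csf3r as the one called, are also in the list of mature neutrophil genes below, so those results are not separate.

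In untreated mice the module was a small but well measured part of the transcriptome. The 50 genes together made 1341 to 2045 CPM in untreated WT and 1151 to 1870 CPM in untreated Bmal1Mye-/-. Divided by exon length (merged exons, GENCODE M21 on GRCm38), the highest mean level in untreated WT was that of Cks2, a small CDK-binding subunit, at 54.1 ± 5.54 CPM per kilobase (SD, n = 5). It was followed by the condensin subunit Smc4 at 24.5 ± 2.58, the cyclin Ccnb2 at 22.0 ± 6.02, the proliferation antigen Mki67 at 21.9 ± 3.82 and the APC/C activator Cdc20 at 21.5 ± 6.29 CPM per kilobase. Those 4 differ from one another by less than their spread. The lowest levels were those of the phosphatase Cdc25c, at 0.673 ± 0.237 CPM per kilobase, and the microtubule regulator Psrc1, at 0.54 ± 0.165 CPM per kilobase.

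After IMQ the module rose in Bmal1Mye-/- neutrophils almost as a block. Of the 50 members, 48 were higher at an adjusted p under 0.05 (quasi-likelihood F-test of edgeR, adjusted over the 14030 genes by Benjamini-Hochberg), 0 were lower, and the background was 14.4% of genes called higher. The same 48 members had all 5 IMQ-treated libraries above all 5 untreated ones, as had 10.8% of all genes. At an unadjusted p under 0.05 the count was 49, beside 22.4% of all genes. Fitted changes ran from -0.09 to 2.32 on the log2 scale with a median of 1.80, where the median over all genes was 0.02. For 42 members the IMQ-treated mean was over 3 times the untreated one. In a bulk sample, fewer or more cells of a type and less or more RNA per cell cannot be told apart.

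In WT neutrophils the same treatment gave an uneven picture. Only Cenpf and Aspm passed the threshold, 2 of 50 members beside 2.34% of all genes called higher. Of the fitted changes 49 were positive, beside 7470 of all 14030 genes, with a median of 1.08 on the log2 scale beside 0.03 for all genes. At an unadjusted p under 0.05, 47 members were higher, beside 12.3% of all genes. In none of the 50 were the 5 treated libraries all above the 5 untreated ones, which was so for 3.11% of all genes. Libraries 1, 2 and 3 of IMQ-treated WT had 48, 49 and 49 members above every untreated WT library. In library 4 only 4 members were above and 45 within the untreated range, and in library 5 none was above, 32 were within and 18 below.

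The spread within groups was widest in IMQ-treated WT. The median coefficient of variation of the members was 26.1% in untreated WT, 22% in untreated Bmal1Mye-/-, 69.5% in IMQ-treated WT and 37% in IMQ-treated Bmal1Mye-/-. Against the untreated WT mean, the median member stood at 2.05, 2.36, 4.51, 0.965 and 0.735 times in IMQ-treated WT libraries 1 to 5. In IMQ-treated Bmal1Mye-/- libraries 1 to 5 it stood at 4.56, 2.07, 3.47, 2.25 and 4.69 times. All untreated libraries were between 0.636 and 1.28 times, with untreated Bmal1Mye-/- library 4 the lowest. The highest library of all 20 was IMQ-treated Bmal1Mye-/- library 5 for 26 members, library 1 of that group for 12 and IMQ-treated WT library 3 for 10.

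**Figure D2:**
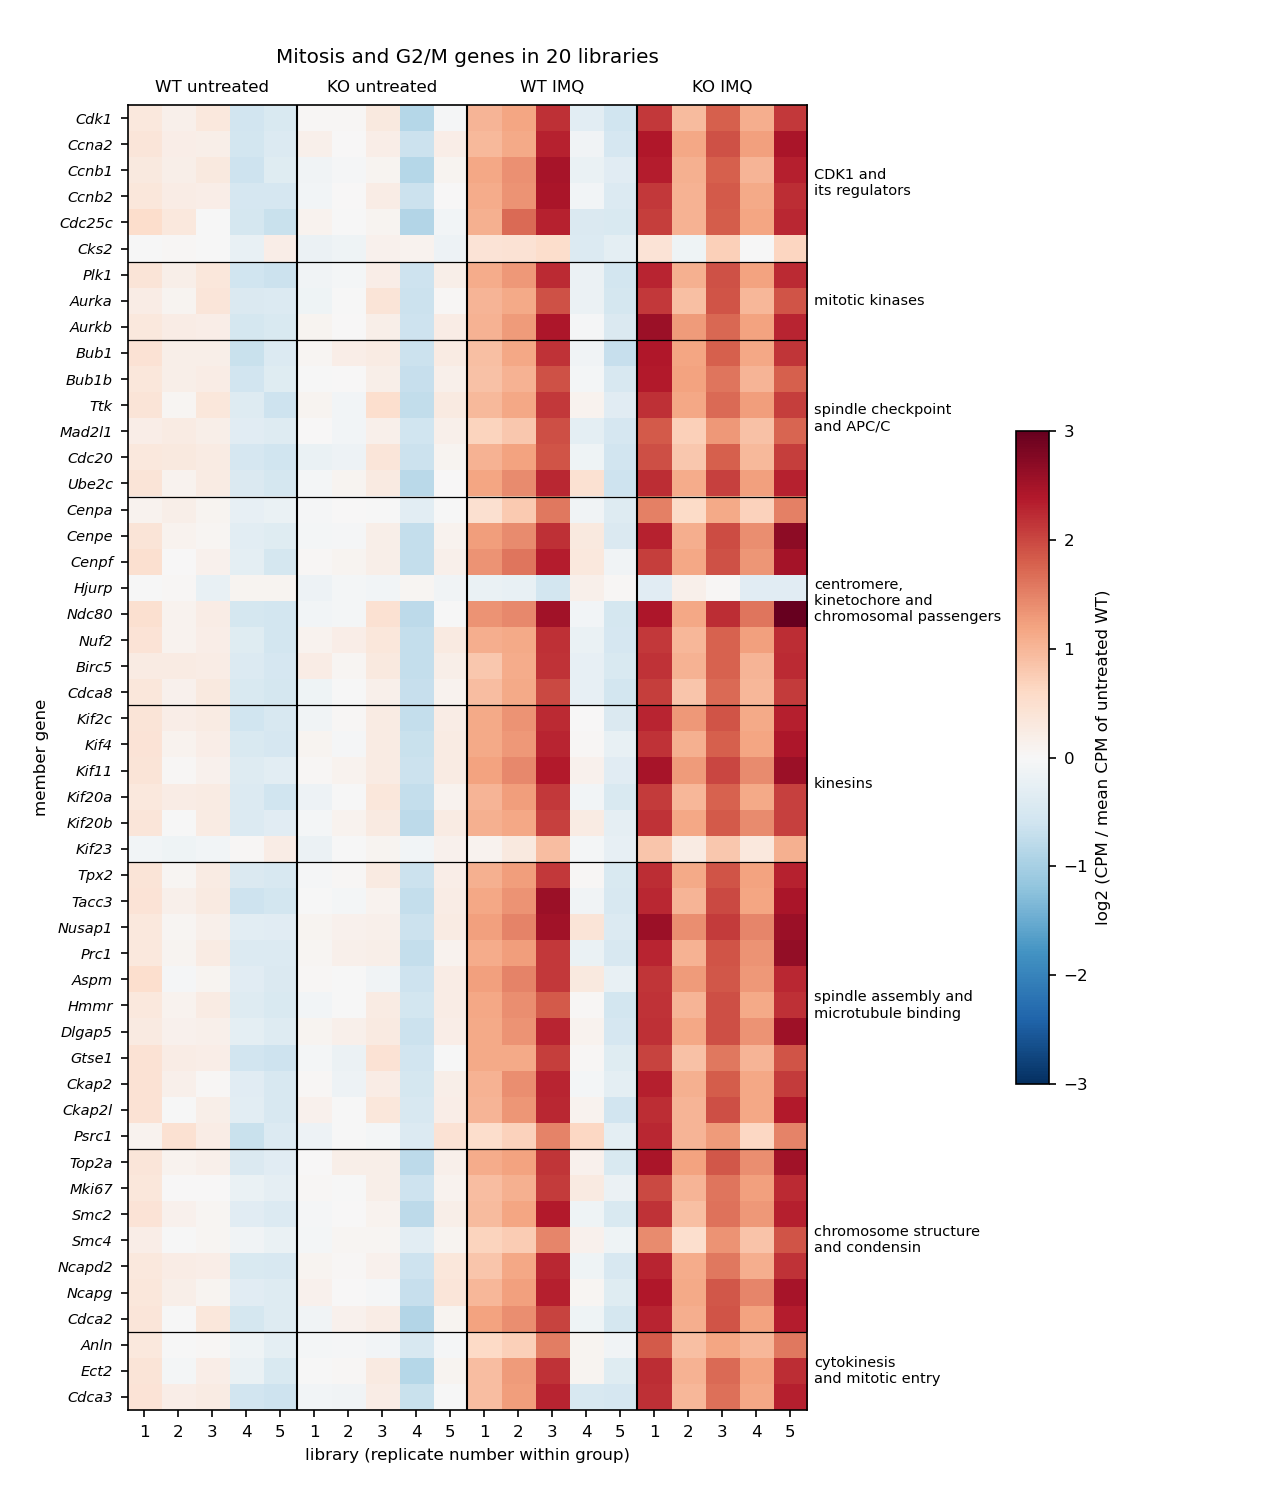
Log2 ratio of each member's CPM to its mean in untreated WT (colour, from -3 in blue to 3 in red), for 50 genes (rows, grouped by role) in 20 libraries (columns, replicate numbers within the 4 groups). All 5 IMQ-treated Bmal1Mye-/- libraries and libraries 1 to 3 of IMQ-treated WT are red for nearly every gene, libraries 4 and 5 of IMQ-treated WT resemble the untreated ones, and Hjurp, Cks2 and Kif23 stay pale.

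Leaving out single libraries moved the WT count strongly. Without IMQ-treated WT library 5, 46 members were called (13.9% of all genes in either direction), and without library 3 none was, with the median at 0.61 on the log2 scale. It was also 0 without any 1 of the 5 untreated WT libraries, without IMQ-treated WT library 1 or 2, without untreated Bmal1Mye-/- library 1, 2, 3 or 5 and without IMQ-treated Bmal1Mye-/- library 3. It was 1 without untreated Bmal1Mye-/- library 4, 3 without IMQ-treated Bmal1Mye-/- library 1, 4 or 5, and 30 with DESeq2. With the replicate number as a block it was 0 in WT and 48 in Bmal1Mye-/-. In Bmal1Mye-/- the count was 48 or 49 whichever library was left out, and 48 without IMQ-treated library 1, the library with few neutrophil marker reads, where the median was 1.68.

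The 6 members that form or regulate the CDK1 kinase include its catalytic subunit, its cyclins, the activating phosphatase Cdc25c and the adaptor Cks2. In Bmal1Mye-/- 5 of them rose and in WT none was called. Cdk1, the kinase itself, measured 27.1, 24.3, 27, 14.7 and 15.9 CPM in untreated WT libraries 1 to 5, 22.2, 22.5, 26.5, 12.1 and 21.4 in untreated Bmal1Mye-/-, 44.2, 49.6, 99.1, 17.5 and 14.5 in IMQ-treated WT and 94.8, 41.9, 75.2, 46.6 and 94.5 in IMQ-treated Bmal1Mye-/-. Thus all treated Bmal1Mye-/- values lie above all untreated ones, and treated WT values lie on both sides of the untreated range. Its log2 fold change with IMQ was 1.76 ± 0.41 (SE) in Bmal1Mye-/- (edgeR, adjusted p = 0.00908) and 1.04 ± 0.40 in WT (adjusted p = 0.13). Ccnb1, cyclin B1, the partner of CDK1 in mitosis, gave 16.9, 15.4, 16.7, 8.95 and 10.7 CPM in untreated WT, 12.7, 13.3, 14.5, 7.6 and 14.6 in untreated Bmal1Mye-/-, 30.5, 35.8, 76.7, 11.9 and 10.8 in IMQ-treated WT and 70.6, 28.6, 47.4, 27.9 and 69.2 in IMQ-treated Bmal1Mye-/-. The fold changes of this cyclin were 1.96 ± 0.43 in Bmal1Mye-/- (adjusted p = 0.00754, edgeR) and 1.27 ± 0.42 in WT (adjusted p = 0.0879). Cyclin A2, encoded by Ccna2 and active from S phase into early mitosis, rose in Bmal1Mye-/- from 49.2, 44.7, 50.9, 28.4 and 51 to 235, 99, 165, 104 and 242 CPM. In WT it read 56.7, 50.8, 50, 30.1 and 33.3 CPM untreated and 86.9, 97.6, 218, 41.2 and 31 CPM treated, with the same 3 libraries high. The exception of the group was Cks2, with 34.3 to 61 CPM in IMQ-treated Bmal1Mye-/- against 32.9 to 40.9 untreated, and a log2 change of 0.41 ± 0.18 (adjusted p = 0.111).

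Among the mitotic kinases, Plk1, Aurka and Aurkb all rose in Bmal1Mye-/-, by 1.88, 1.68 and 1.91 on the log2 scale. Plk1, polo-like kinase 1, which acts in centrosome maturation, chromosome attachment and cytokinesis, measured 38.3, 33.1, 37.6, 19.4 and 19 CPM in untreated WT and 63.5, 72.7, 140, 26 and 20.1 CPM in treated WT. In Bmal1Mye-/- it measured 27.6, 28.4, 33.9, 19.2 and 33.1 CPM untreated and 143, 61.8, 110, 68.4 and 140 CPM treated, again with no overlap (edgeR, adjusted p = 0.00742), while the WT comparison overlapped (adjusted p = 0.105). Aurkb, the kinase of the chromosomal passenger complex, averaged 81.0 CPM in treated against 21.6 in untreated Bmal1Mye-/-.

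All 6 genes of the spindle checkpoint and the APC/C, the ubiquitin ligase that starts anaphase, rose in Bmal1Mye-/-, by 1.43 (Mad2l1) to 1.93 (Ube2c) on the log2 scale. Ube2c, the E2 enzyme of that ligase, had 47.2, 38.5, 42.6, 26.4 and 24.8 CPM in untreated WT, 34.7, 37.9, 43.2, 20.6 and 36.3 in untreated Bmal1Mye-/-, 81.8, 96.4, 172, 49.6 and 23.5 in treated WT and 167, 77.8, 149, 84.8 and 178 in treated Bmal1Mye-/-. It is one of the few genes for which library 4 of treated WT, at 49.6 CPM, lies above every untreated library. Its exons overlap those of Tnnc2, on the opposite strand, over 22.8% of their length, and the strand setting of the counting is not given in the sources used here.

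Centromere and kinetochore genes held both the strongest and the weakest responses. Ndc80, a microtubule-binding subunit of the outer kinetochore, had the largest change of all members in Bmal1Mye-/-, 2.32 ± 0.47 on the log2 scale (edgeR, adjusted p = 0.00623), from 10.2, 10.5, 14.8, 6.34 and 10.8 CPM untreated to 58.8, 24.4, 50.2, 32.9 and 95.8 CPM treated. Its WT values were 15.2, 11.6, 12.6, 7.51 and 7.37 CPM untreated and 27.8, 29.4, 62.1, 10.2 and 7.58 CPM treated. Library 5 of treated Bmal1Mye-/- is by far the highest of all 20 for this gene. Cenpe, the kinetochore kinesin, showed 32.3, 26.6, 26, 20.1 and 19.3 and 59.6, 66.1, 113, 30.4 and 18.3 CPM in untreated and treated WT. In Bmal1Mye-/- these were 23.9, 24.4, 28.1, 15.1 and 26.6 and 124, 52.8, 96.3, 65.3 and 160 CPM, a change of 2.08 ± 0.38 (adjusted p = 0.00475, edgeR). Cenpf, a large kinetochore and nuclear matrix protein, had the smallest p of the members in WT, with 33, 23.8, 25.7, 19.1 and 16.3 CPM untreated and 59.6, 72, 120, 29.6 and 21.8 CPM treated, a change of 1.36 ± 0.36 (adjusted p = 0.0433 by edgeR). Libraries 4 and 5 of treated WT nevertheless lie inside the untreated range. In Bmal1Mye-/- Cenpf went from 24.2, 25, 26.6, 14.4 and 26.1 to 99.8, 53, 88, 58.8 and 132 CPM. Nuf2, the partner of Ndc80, rose from 17.6, 18.9, 20.9, 10.1 and 19.8 to 71.3, 32.6, 56, 38.7 and 76.2 CPM in Bmal1Mye-/- and gave 21.7, 17.8, 18.8, 12.7 and 11.3 CPM untreated and 35.1, 36.1, 74.6, 14.3 and 11.7 CPM treated in WT.

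Hjurp, the chaperone that loads the histone variant CENP-A at centromeres, did not move with the rest. Its values were 83.8, 85.2, 71.4, 89.4 and 89.3 CPM in untreated WT, 75.1, 80.4, 79.3, 87.2 and 77.4 in untreated Bmal1Mye-/-, 72.9, 71.9, 56.9, 93.8 and 86.4 in treated WT and 66.5, 92.8, 85.4, 65.7 and 65.7 in treated Bmal1Mye-/-. All 4 groups overlap, and the lowest value of all is in IMQ-treated WT library 3, where most other members were near their highest. The changes with IMQ were -0.13 ± 0.13 in WT (edgeR, adjusted p = 0.568) and -0.09 ± 0.13 in Bmal1Mye-/- (adjusted p = 0.629). The latter turned to 0.04 with scaling by library totals and to 0.02 with limma, which also used library totals. Across the 20 libraries, which share the 4 groups, Hjurp had a Pearson r of -0.692 with the mean of the other members (log2 CPM, a description). Its client Cenpa, the histone variant itself, rose by 1.21 ± 0.28 in Bmal1Mye-/- (edgeR, adjusted p = 0.00839). In the annotation no exon of Hjurp (chr1:88262471-88277633) overlaps that of another gene.

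All 6 kinesins rose in Bmal1Mye-/-, 5 of them by 1.73 to 2.01 on the log2 scale. Kif23, which encodes MKLP1 of the central spindle, had the smallest change of the kinesins, 0.70 ± 0.18 (edgeR, adjusted p = 0.0148). It measured 73.1, 71.4, 73.9, 80.3 and 90 CPM in untreated WT, 68.7, 76.9, 82.8, 73.6 and 84.6 in untreated Bmal1Mye-/-, 84, 95.6, 147, 74.9 and 65.9 in treated WT and 139, 91.7, 137, 96.9 and 164 in treated Bmal1Mye-/-. The treated and untreated values of Bmal1Mye-/- do not overlap, but the step between them is narrow. Kif11, the motor that separates the spindle poles, rose instead by 2.01 ± 0.39 in Bmal1Mye-/- (edgeR, adjusted p = 0.0055).

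The 11 spindle assembly and microtubule-binding genes all rose in Bmal1Mye-/-, by 1.45 (Psrc1) to 2.08 (Nusap1), and 1 of them, Aspm, was called in WT. Aspm, a spindle pole protein, gave 24, 16.5, 17.7, 13.3 and 12.5 CPM in untreated WT and 39.3, 47.5, 73, 20.7 and 14.3 CPM in treated WT, a change of 1.21 ± 0.33 (edgeR, adjusted p = 0.0479). In Bmal1Mye-/- it gave 17.3, 16.6, 15.6, 10.9 and 19.7 and 74, 40.5, 61.2, 41.6 and 80.3 CPM, a change of 1.89 ± 0.34 (adjusted p = 0.0046, edgeR). Libraries 4 and 5 of treated WT lie inside the untreated range here too. Nusap1, which bundles spindle microtubules, had the largest fitted change in WT, 1.37 ± 0.39 (adjusted p = 0.0515 in edgeR), with 27.1, 22.7, 24.1, 17.5 and 17.1 CPM untreated and 50.9, 60.5, 124, 28.4 and 16.4 CPM treated. In Bmal1Mye-/- Nusap1 went from 23.1, 23.6, 24.2, 13.8 and 25.6 to 129, 56.6, 93.3, 59.7 and 129 CPM. For Tpx2, an activator of Aurora A on the spindle, WT gave 48.8, 39.1, 44.6, 27.7 and 26.6 CPM untreated and 78.7, 89.8, 163, 38 and 27.4 CPM treated. Tpx2 in Bmal1Mye-/- gave 36.2, 38.5, 44.8, 24 and 43.2 and 174, 81.7, 139, 86.5 and 184 CPM, without overlap.

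Genes of chromosome structure rose in Bmal1Mye-/- in 7 of 7 cases. Mki67, the coat protein of mitotic chromosomes known as the antigen Ki-67, had the most counts of all members. It measured 281, 222, 224, 193 and 182 CPM in untreated WT, 227, 220, 250, 143 and 239 in untreated Bmal1Mye-/-, 418, 465, 944, 266 and 195 in treated WT and 876, 447, 675, 513 and 1038 in treated Bmal1Mye-/-. The change was 1.72 ± 0.33 in Bmal1Mye-/- (edgeR, adjusted p = 0.00526) and 1.05 ± 0.32 in WT (adjusted p = 0.0672). Top2a, the topoisomerase that untangles sister chromatids, read 144, 120, 124, 83.3 and 87.9 CPM in untreated WT and 243, 259, 494, 122 and 81.3 CPM in treated WT. In Bmal1Mye-/- Top2a read 112, 126, 126, 64.5 and 125 CPM untreated and 606, 260, 407, 292 and 637 CPM treated, a change of 1.99 ± 0.38 (edgeR, adjusted p = 0.00526). Smc4, the core ATPase of condensin, changed by 1.31 ± 0.26 on the log2 scale in Bmal1Mye-/- (edgeR, adjusted p = 0.0055) and by 0.69 ± 0.25 in WT (adjusted p = 0.113). Smc4 measured 147, 127, 133, 119 and 112 CPM in untreated WT, 123, 133, 133, 103 and 136 in untreated Bmal1Mye-/-, 202, 216, 355, 139 and 117 in treated WT and 342, 182, 326, 231 and 471 in treated Bmal1Mye-/-.

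Of the last role, cytokinesis and mitotic entry, Anln, Ect2 and Cdca3 rose in Bmal1Mye-/-. Anln encodes anillin, the scaffold of the contractile ring, and its promoter is shown above for its E-box letters. Its values were 39.1, 31.6, 32.6, 28.8 and 26 CPM in untreated WT, 30.6, 30.9, 30.1, 22.7 and 30.8 in untreated Bmal1Mye-/-, 48.2, 51.5, 91.2, 33.6 and 29.2 in treated WT and 113, 59, 72.3, 63 and 95 in treated Bmal1Mye-/-. Anln had the smallest p of all members in Bmal1Mye-/-, with a change of 1.47 ± 0.25 (edgeR, adjusted p = 0.0046), and changed by 0.68 ± 0.24 in WT (adjusted p = 0.106).

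**Figure D3:**
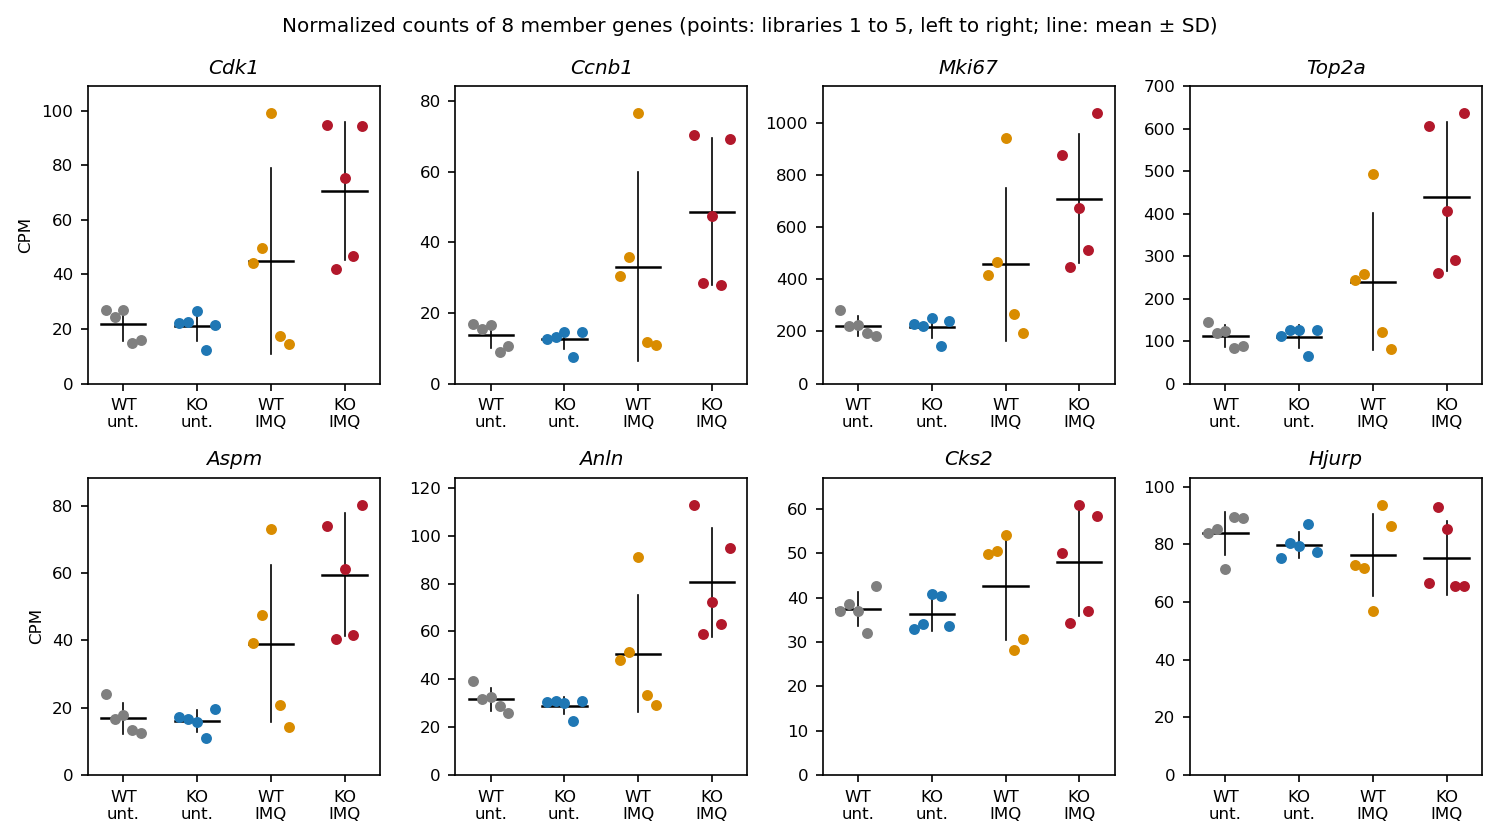
CPM (y axes, from 0) of 8 members in each library, libraries 1 to 5 from left to right in each group, with the mean (horizontal line) and SD (vertical line, n = 5). For Cdk1, Ccnb1, Mki67, Top2a, Aspm and Anln every IMQ-treated Bmal1Mye-/- point lies above the untreated ones while IMQ-treated WT spans both ranges; Cks2 and Hjurp overlap between all groups.

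Without IMQ no member was called between the genotypes. Between untreated Bmal1Mye-/- and untreated WT 0 of 50 members were called by edgeR, DESeq2 or limma, where edgeR called 0.107% of all genes higher, and 0 members had an unadjusted p under 0.05 in edgeR, beside 1.59% of all genes higher. Fitted differences, Bmal1Mye-/- minus WT, ran from -0.13 to 0.09 on the log2 scale with a median of -0.03. The lowest were those of Ccnb1 at -0.13 ± 0.42 and Anln at -0.12 ± 0.24, and the highest that of Nuf2 at 0.09 ± 0.38. Standard errors of this size do not show that the levels were equal.

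With IMQ, 49 of 50 members were fitted higher in Bmal1Mye-/- than in WT, beside 7456 of all 14030 genes. The median was 0.67 on the log2 scale beside 0.03 for all genes, but 0 members were called by edgeR, DESeq2 or limma (edgeR called 0.185% of all genes higher). The 50 signs are not independent, since the members vary together across the same libraries (median r = 0.993 with the mean of the others). In edgeR 11 members had an unadjusted p under 0.05, a share of members to be read beside 11.1% of all genes. That count depended on the method, at 22 with DESeq2, 14 with library totals in edgeR and 45 with limma, also on library totals. It was 42 with the replicate number as a block and 1 with only the 2 groups compared. In 0 of 50 did the 5 libraries of each genotype separate, beside 0.627% of all genes. Anln had the smallest adjusted p, 0.212 in edgeR, with 0.67 ± 0.24. Top2a differed by 0.88 ± 0.37 and Smc4 by 0.59 ± 0.25 (adjusted p = 0.233 for each, edgeR). The largest difference was that of Ndc80, 0.93 ± 0.45 (adjusted p = 0.252 in edgeR). Hjurp differed by -0.02 ± 0.13, which turned to 0.19 with scaling by library totals and 0.18 with limma, also on library totals.

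This comparison turned on 1 library. Without IMQ-treated WT library 3, 47 members were called higher in Bmal1Mye-/-, the median was 1.15, and 21.9% of all genes were called in either direction. Without that library and IMQ-treated Bmal1Mye-/- library 1, the pair with the highest TMM factors, 18 members were called (8.89% of all genes), with a median of 1.03. Leaving out any other IMQ-treated library gave 0 calls and medians of 0.48 (without IMQ-treated WT library 5) to 0.82.

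**Figure D4:**
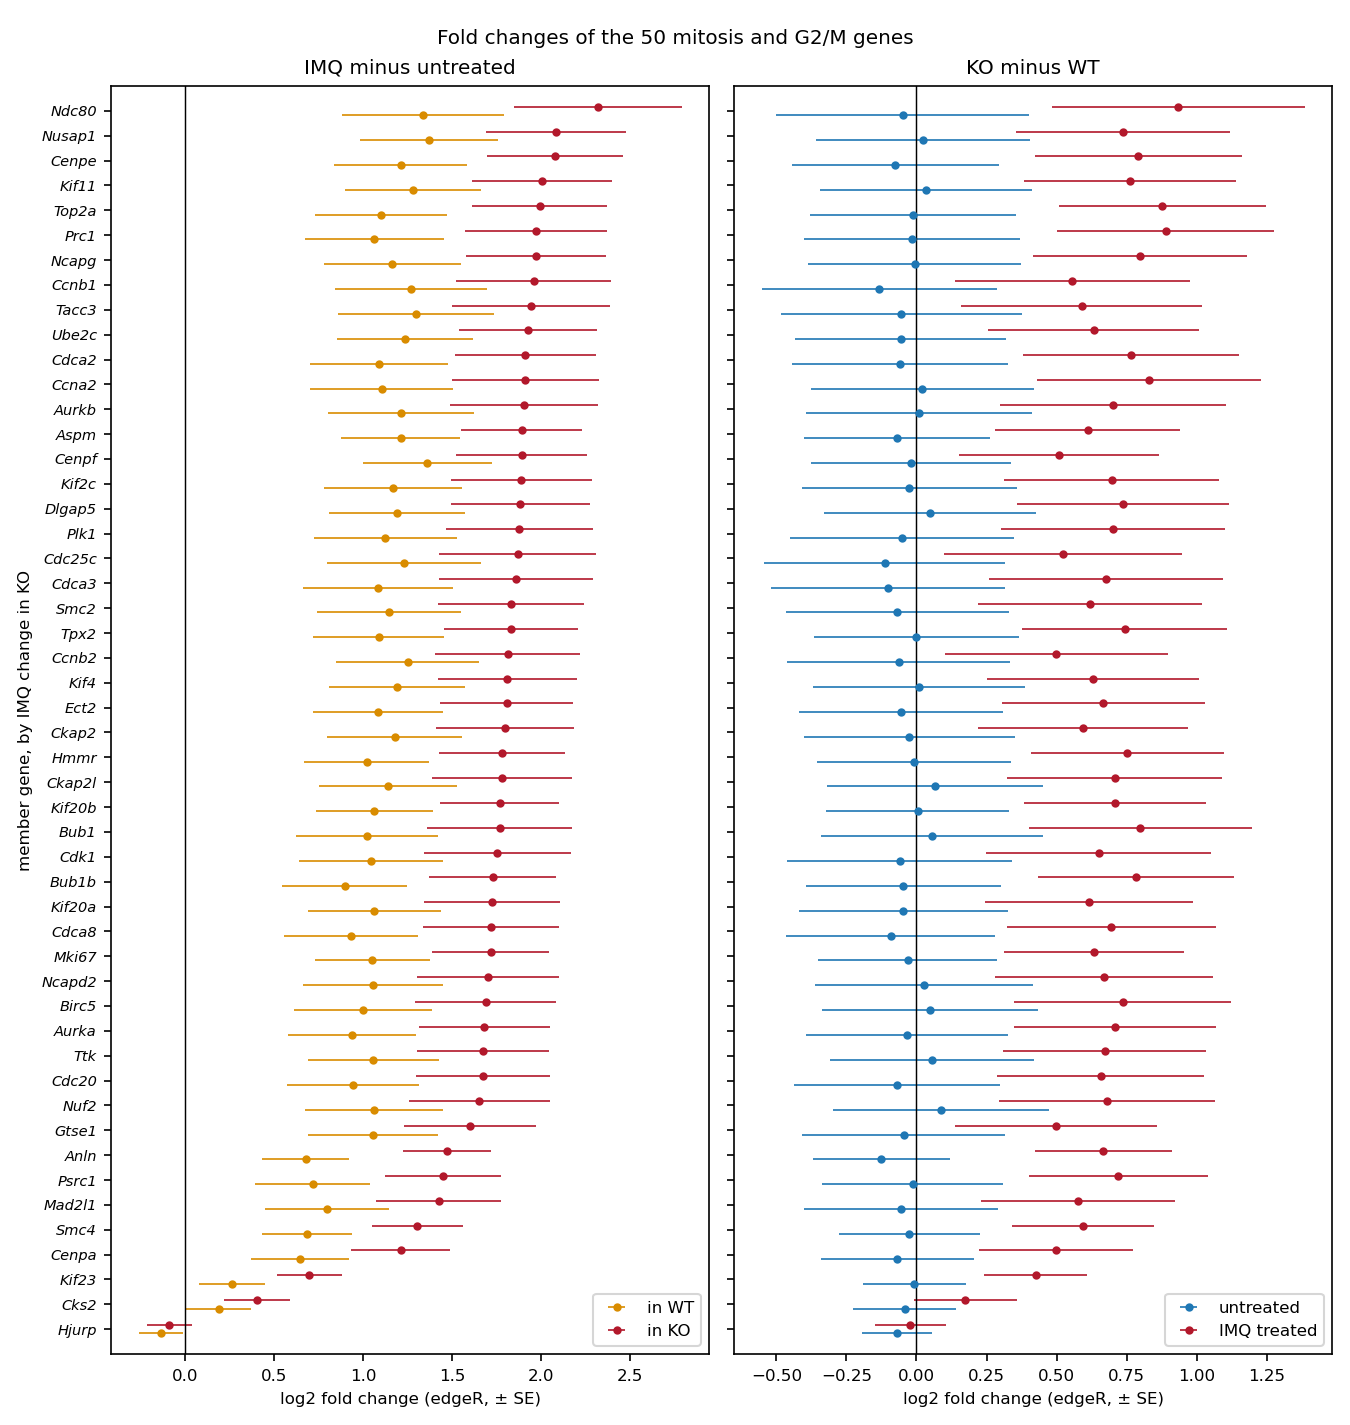
Log2 fold changes with their SE (edgeR, 5 libraries per group) for the 50 members (y axis, ordered by the change with IMQ in Bmal1Mye-/-, written KO). Left, IMQ against untreated in WT (orange) and KO (red); right, KO against WT in untreated (blue) and IMQ-treated mice (red). The medians are 1.08 and 1.80 on the left and -0.03 and 0.67 on the right.

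Whether IMQ acted differently in the genotypes was tested directly as the interaction of genotype and treatment. The fitted interaction was positive for all 50 members, from 0.05 (Hjurp) to 0.98 (Ndc80), beside 7181 of all 14030 genes. Its median was 0.69 on the log2 scale beside 0.01 for all genes. Here too the signs are not independent, since the members vary together. edgeR called 0 members and 0 of all genes (0%), as did DESeq2 and limma for the members, and 1 member, Anln, had an unadjusted p under 0.05, beside 2.81% of all genes. Without IMQ-treated WT library 3 that count was 47 and the median 1.18, and without the pair of libraries with the highest TMM factors it was 43 and 1.07, with 0 members called in either case. With the replicate number as a block it was 5. Anln had an interaction of 0.79 ± 0.34 (adjusted p = 0.640 in edgeR). So the difference in response between the genotypes was not itself past the threshold for any member. Top2a had 0.89 ± 0.52 and Smc4 had 0.62 ± 0.36 (adjusted p = 0.640 for each, edgeR).

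The members varied together across mice. With the mean of the other members, 46 of 50 had a Pearson r over 0.95 across the 20 libraries (log2 CPM), with a median of 0.993; the points share the 4 groups and the library scaling, and no test was made. Below that were Psrc1, Kif23, Cks2 (0.763) and Hjurp. The genes outside the list with the most similar pattern were Dbf4 (r = 0.9973), Racgap1 (0.997), Kifc1 (0.9968), Foxm1 (0.9958), C330027C09Rik (0.9956), Incenp (0.9956), Kif22, Spag5, Kif15, Kif18b, Prr11 and Sgol2a. Of these 12 genes, 9 were in a list of other mitotic genes and none in a list of 37 S phase genes. Dbf4, C330027C09Rik and Prr11 were in no list, so these counts depend on how the lists were drawn up. Foxm1, the transcription factor of G2/M genes, was 3.59 times higher with IMQ in Bmal1Mye-/- (edgeR, adjusted p = 0.00671) and 2.19 times in WT. In WT it was not called.

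In a list of other mitotic genes, 51 of 56 tested genes rose with IMQ in Bmal1Mye-/- (median 1.70 on the log2 scale), beside 14.4% of all genes. In WT 2, Cdc25b and Depdc1b, rose (median 1.02), beside 2.34% of all genes. Cdc25b, a CDK-activating phosphatase, rose in WT by 1.05 ± 0.18 (edgeR, adjusted p = 0.00774). In Bmal1Mye-/- Depdc1b rose by 0.96 ± 0.18 (edgeR, adjusted p = 0.00521). Between genotypes under IMQ, 0 of the 56 were called, with a median of 0.66.

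Genes of DNA synthesis had lower medians for IMQ within each genotype. Of 37 S phase genes, 18 rose with IMQ in Bmal1Mye-/-, beside 14.4% of all genes, with a median of 0.99 on the log2 scale. The list was led by Cdc45, of the replicative helicase, at 0.86 ± 0.22 (edgeR, adjusted p = 0.0128), and Rfc5, of the clamp loader, at 1.22 ± 0.33 (adjusted p = 0.0167). In WT the median was 0.34 and 1 gene, Rfc2, was called, beside 2.34% of all genes called higher. Between genotypes under IMQ, 0 of the 37 were called, with a median of 0.64, near the 0.67 of the members. The interaction medians were 0.67 for these genes and 0.69 for the members. Their summed level was 544 to 2439 CPM in IMQ-treated WT and 1069 to 2505 in IMQ-treated Bmal1Mye-/-, with IMQ-treated WT library 3 again the highest of its group.

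Upstream of S phase, the 8 G1 cyclins and CDKs split. Cdk2 and Ccne2 rose in Bmal1Mye-/-, Cdk2 by 0.80 ± 0.15 (edgeR, adjusted p = 0.00526), and Ccnd2, cyclin D2, fell by 1.05 on the log2 scale (SE 0.30, adjusted p = 0.0198). In WT none was called. Among 9 tested CDK inhibitors and pocket proteins, 5 were higher and 1 lower in treated Bmal1Mye-/-, and 2 were higher in treated WT. The counts of this list and of the G1 list stand beside 14.4% of all genes called higher and 9.04% lower in Bmal1Mye-/-. In WT 2.34% of all genes were called higher. Rbl1, the pocket protein p107 of the repressive DREAM complex, rose by 1.54 ± 0.32 (edgeR, adjusted p = 0.00651) in Bmal1Mye-/-, and Cdkn2c, the CDK4/6 inhibitor p18, rose by 1.57 ± 0.33 (adjusted p = 0.00687). In WT the called genes were Cdkn2d, p19, at 0.71 ± 0.16 (edgeR, adjusted p = 0.0256) and Cdkn1a, p21, at 1.83 ± 0.48 (adjusted p = 0.039).

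Genes of other stages and cell types moved in some of the same libraries, and their part in the results was not tested. The lists share genes, among them Csf3r, which is both a neutrophil marker and a mature neutrophil gene. In treated Bmal1Mye-/-, where 9.04% of all genes were called lower, Ccl6, Csf3r and Il1b of 8 mature neutrophil genes fell, and the median change of the 8 was -0.87 on the log2 scale. Their sum was 25462 to 32834 CPM in untreated WT, 25646 to 31862 in untreated Bmal1Mye-/-, 8450 to 32130 in treated WT and 5517 to 23514 in treated Bmal1Mye-/-. The 3 libraries with the lowest sums, Bmal1Mye-/- libraries 1 and 5 and WT library 3, all IMQ-treated, are also the 3 in which most members had their highest value, and the treated WT libraries 4 and 5, at 32130 and 31768 CPM, had the lowest member sums of their group. The 4 primary granule genes, made by promyelocytes, had 0 calls in any of the 5 comparisons, as had the 6 secondary granule genes. Primary granule sums ranged from 98.7 to 645 CPM in treated WT and 210 to 1588 in treated Bmal1Mye-/-. The median primary granule change with IMQ was -0.66 on the log2 scale in WT and 0.675 in Bmal1Mye-/-. Between IMQ-treated genotypes all 4 were fitted higher in Bmal1Mye-/-, with a median of 1.13, whereas the median of the 6 secondary granule genes was -0.07.

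Monocyte markers were called higher in 5 of 8 cases in treated Bmal1Mye-/-, beside 14.4% of all genes. Their summed levels were 806 to 922 CPM in untreated WT, 769 to 984 in untreated Bmal1Mye-/-, 964 to 1530 in treated WT and 640 to 2378 in treated Bmal1Mye-/-, and none of the 8 was at 0. The highest sum was that of treated Bmal1Mye-/- library 1 and the lowest that of library 5, both with high members. Erythroid markers summed to 114 to 268 CPM in untreated WT, 88 to 415 in untreated Bmal1Mye-/-, 198 to 1014 in treated WT and 61.7 to 725 in treated Bmal1Mye-/-. Of the 9 tested, 1 was higher in treated WT, beside 2.34% of all genes, and 0 in treated Bmal1Mye-/-. The globin genes were listed at 0 throughout, and the highest sums were those of treated WT library 3 and treated Bmal1Mye-/- library 5. B-lineage markers stayed between 4.93 and 29.3 CPM in sum, and 3 of 9 tested were lower in treated than in untreated Bmal1Mye-/-. T and NK markers stayed between 6.18 and 24.8 CPM, with 2 of 6 lower in that comparison, and basophil and mast markers between 2.36 and 18.3 CPM, with 1 of 6 higher; these shares stand beside 9.04% of all genes called lower and 14.4% called higher. Eosinophil markers summed to 21.6 to 42.3 CPM in treated WT and 43.1 to 207 in treated Bmal1Mye-/-. Of these markers 2 of 8 were called higher in treated Bmal1Mye-/- than in treated WT, beside 0.185% of all genes. With IMQ 1 of 8 was lower in each genotype, beside 1.6% of all genes in WT and 9.04% in Bmal1Mye-/-. Stem and progenitor markers summed to 43.6 to 83.4 CPM with 0 of 9 called in any comparison.

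**Figure D5:**
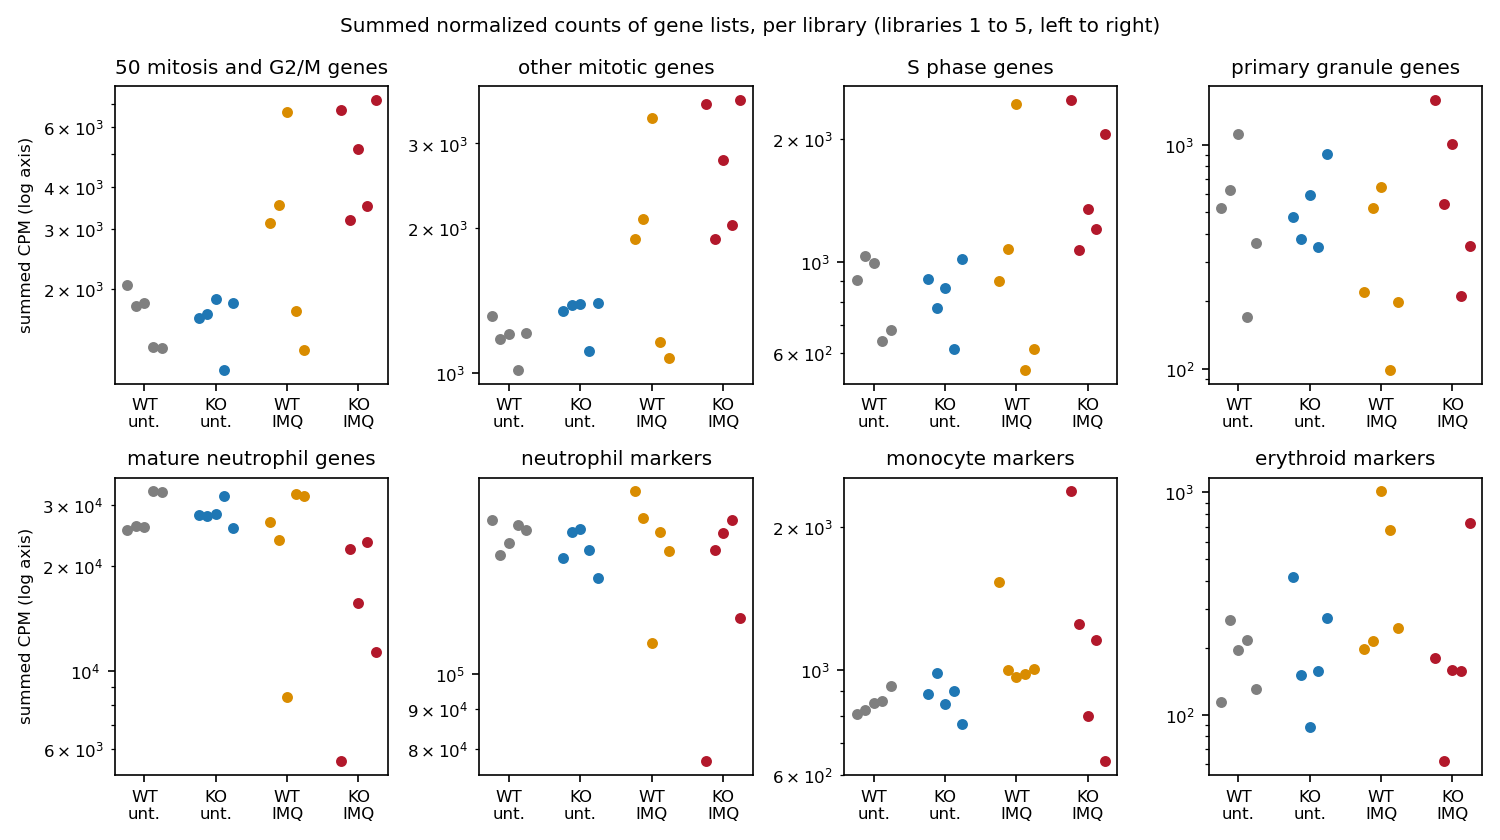
Summed CPM per library (log axes) of the 50 members and of 7 other gene lists, libraries 1 to 5 from left to right in each group. In IMQ-treated mice the libraries with the highest sums of members, 6631 to 7239 CPM, have the lowest sums of mature neutrophil genes, 5517 to 11337 CPM.

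The genes are spread over 18 chromosomes. Because the floxed gene, Arntl, lies on chromosome 7, the 3 members there, Prc1, Plk1 and Mki67, were looked at separately. They differed between untreated genotypes by -0.05 to -0.02 on the log2 scale and between IMQ-treated genotypes by 0.63 to 0.89, beside medians of -0.03 and 0.67 for the 47 members elsewhere. The chromosome of Lyz2, the locus of Cre, was not looked at in this way. For 15 members, merged exons overlap those of another gene, at most over 29.3% of their length (Kif20a with Cdc23). Ccnb1, Ccnb2 and Kif4 have pseudogenes annotated under their own names. Reads of all these genes could be split or shared in the counting. Pseudogenes annotated under other names were not searched for.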

How the data were processed

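RNA from neutrophils of 20 mice was sequenced, 1 library per mouse and 5 per group, with groups taken from the sample labels. The study's methods name more than 1 Illumina instrument and do not say which libraries were run on which. The authors deposited raw read counts per gene, 1 table per library, not normalized. The submitters' processing notes name bcl2fastq, STAR 2.7.8a, HTSeq 2.0.1 and mm10, while the study's methods name TopHat; the annotation and the strand setting of the counting are not given in the sources used here. Reads without a feature took 51.85% to 57.79% of a file and were left out.

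The tests used edgeR 4.0.16 under R 4.3.3: TMM factors, a filter on low counts by group, and the quasi-likelihood test in 1 model of the 4 groups, with Benjamini-Hochberg adjustment over 14030 genes and a threshold of 0.05. The procedure was tested on simulated counts, with genes drawn independently and the same spread in every group, unlike these data. Each gene had 1 estimate of spread for all 4 groups, so a standard error does not measure the spread of only the groups compared. A non-overlap is a gene whose 5 libraries of one group all exceed those of the other. The study's analysis of variance on log2 RPKM was replaced because counts were deposited. Alternatives were DESeq2 1.42.0, limma 3.58.1 on log2(CPM + 0.1), other scalings and filters, fits of only 2 groups, a replicate block, and leaving out each library. The CPM given to limma were scaled by library totals, without TMM factors. Members and gene lists were chosen with earlier results of these data known. Values per library are given for Cdk1, Ccnb1, Mki67 and Top2a, for the member of each role with the highest mean, and for members with the 3 smallest p or the highest or lowest change in a comparison. Of the other lists, the 2 genes with the smallest p are named, except 1 that is not reported here; Ccnd2, Ccne2, Rfc2, Foxm1, Ccl6, Csf3r, Il1b, Cenpa, Kif11, Aurka and Aurkb were named after their values were seen.

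Same-numbered libraries deviated together in all 5 pairs for IMQ in Bmal1Mye-/- (r = 0.128 to 0.426) and in 4 of 5 pairs over 0.1 in WT (0.073 to 0.384). Between genotypes r was -0.441 to 0.206 untreated and -0.497 to 0.343 with IMQ. Each library is a separate mouse, and the labels do not say what a shared number means. Libraries with different numbers were not compared across groups in this way, so these values do not show a pairing.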

Additional observations from a re-analysis of the deposited data

Results flagged for a closer look

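Among 136 sets of 5 libraries examined for a lone high or low value, 15 had a gap of over 0.71 of the group's range, and chance alone flags about 1 in 20 such sets. Untreated Bmal1Mye-/- library 4 was low for Ccnb1 (7.6 CPM, nearest other library 12.7), Mki67 (143, nearest 220), Top2a (64.5, nearest 112), Ccna2 (28.4, nearest 44.7), Anln (22.7, nearest 30.1), Cenpf (14.4, nearest 24.2) and Nusap1 (13.8, nearest 23.1). The sum of the other mitotic genes in that library was 1112 CPM, with the nearest at 1347. These flags are not independent, since the genes vary together. Without that library, 48 members were still called for IMQ in Bmal1Mye-/-, with a median of 1.68 on the log2 scale.

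IMQ-treated WT library 3 had a sum of S phase genes of 2439 CPM, where the nearest library of its group had 1079. IMQ-treated Bmal1Mye-/- library 3 had a sum of G1 cyclins and CDKs of 1579 CPM, against 1198 in the nearest. IMQ-treated WT library 5 was low for CDK inhibitors and pocket proteins, with a sum of 661 CPM against 770. Erythroid markers reached 725 CPM in IMQ-treated Bmal1Mye-/- library 5, against 180 in the nearest. Monocyte markers reached 1530 CPM in IMQ-treated WT library 1, against 1001. B-lineage markers were at 29.3 CPM in untreated WT library 3, against 13.7. Basophil and mast markers were at 16.2 CPM in untreated Bmal1Mye-/- library 1, against 5.85.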

How the results depend on the processing

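The count of members called for IMQ in Bmal1Mye-/- was 48 under every alternative that kept all libraries, and 48 to 49 when 1 library was left out. The WT count of 2 became 30 with DESeq2, 1 with a minimum of 10 counts in every library, and 0 with library totals, with limma, with no filter, with only the 2 groups compared, with the replicate block and without the pair of libraries with the highest TMM factors, an alternative chosen after seeing the data. It ranged from 0 to 46 when 1 library was left out. Between IMQ-treated genotypes the count of 0 became 18 without that pair and ranged from 0 to 47 when 1 library was left out. The replicate block changed no other count of members past the adjusted threshold, but moved the unadjusted counts between IMQ-treated genotypes from 11 to 42 and for the interaction from 1 to 5. Hjurp changed sign in both fits without TMM factors. It went to 0.04 with library totals and 0.02 with limma for IMQ in Bmal1Mye-/-, and to 0.19 and 0.18 between IMQ-treated genotypes. With 1 library left out, its difference between IMQ-treated genotypes ran from -0.11 to 0.08 and its interaction from -0.03 to 0.16, and between untreated genotypes Nuf2 ran from -0.04 to 0.23 and Ccnb1 from -0.26 to 0. The cause was not tested. Scaling by library totals put the median of all genes at 0.155 for IMQ in Bmal1Mye-/- and at 0.229 between IMQ-treated genotypes, where the members' medians were 1.98 and 0.83.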
